A study of Rattus norvegicus with 8 samples.

Results

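Expression of 5 proteoglycan genes was examined in cells of the rat nucleus pulposus, which is the soft centre of the intervertebral disc. The genes were chosen by name, with earlier results of these data known. They are the core proteins aggrecan (Acan), versican (Vcan), decorin (Dcn) and lubricin (Prg4), and the chain-building enzyme chondroitin sulfate synthase 3 (Chsy3). All 5 were found, each in 1 row, among the 4226 rows of the deposited table. Endogenous SOD1, the copper-zinc superoxide dismutase, was knocked down in the cells, which were then transfected with either wild-type SOD1 (SOD1-WT, 4 libraries) or SOD1 carrying the lysine-to-arginine substitution K123R (SOD1-K123R, 4 libraries). Both groups carry the label lactate, given at 10 mM for 7 days, so by the labels lactate exposure and SOD1 knockdown are shared by controls and mutants. The comparison asks how expression differs between the SOD1 forms under lactate. In the table the columns are headed Ctrl for SOD1-WT and L for SOD1-K123R, and no label says what L stands for. Should L mean lactate and Ctrl its absence, each difference given here would reflect lactate as well as, or in place of, the SOD1 form, which was not tested. The labels do not say whether replicates came from separate cultures or animals, so the p-values reflect the spread among these libraries alone, and this spread may be technical.

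Proteoglycans are proteins that carry long, sulfated sugar chains. In the disc core, aggrecan binds many chondroitin sulfate chains, which draw in water, and is anchored to hyaluronan by link protein, and this hydrated gel lets the disc bear load. Versican is a related large proteoglycan that also binds hyaluronan, decorin is a small leucine-rich proteoglycan that binds collagen fibrils, and lubricin is a mucin-like lubricating glycoprotein of joint surfaces. Chondroitin sulfate chains are started on a linker sugar, lengthened in the Golgi by synthases such as CHSY3, and then sulfated or, for dermatan sulfate, epimerized.

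Values are TPM, an abundance per transcript that is scaled for length and library size, so that levels of different genes can be compared. The rows of the table summed to between 187515 and 198656 TPM in SOD1-WT and between 235371 and 243393 TPM in SOD1-K123R, so they are part of a larger gene set; neither the rule that chose them nor the sequencing depth is given in the sources used here. Sod1 was not analysed here. The test was limma on log2(TPM + 1), a scale that understates the change of low genes, for genes averaging 1 TPM or more across all 8 libraries. An adjusted p under 0.05 (Benjamini-Hochberg, over all genes tested) counted as passing. Of 2890 genes tested, 95.7% passed, and 91.4% had no overlap between the 4 values of each group. Only 8.44% of the tested genes had an absolute log2 fold change under 0.5, so passing the test does not set a gene apart in this table. The sources used here do not say whether the rows were chosen for differing between the groups. Shares, ranks, medians and adjusted p-values given here therefore hold for these rows alone. All 5 genes of the set passed the expression filter. Of these, 3 fell (Vcan, Acan and Chsy3) and 1 rose (Dcn) in SOD1-K123R, while Prg4 did not pass. These counts, 4 of 5 against the 95.7% of the whole table, are a description only. In bulk RNA, fewer cells of a type and less RNA per cell cannot be told apart.

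Decorin was the most abundant of the 5 transcripts in every library. Dcn (ENSRNOG00000004554) measured 470.1, 560, 545 and 537 TPM in SOD1-WT replicates 1 to 4 and 1107, 1167, 970 and 844 TPM in SOD1-K123R replicates 1 to 4. Every SOD1-K123R library lay above every SOD1-WT library. Here and below, errors of TPM are SDs over the n = 4 libraries of a group. The mean went from 528 ± 39.7 to 1022 ± 145 TPM, a 1.94-fold rise, with a log2 fold change of 0.94 (SE 0.11; limma adjusted p = 2.72e-06). The size of this rise depended on the scaling of the libraries: the log2 fold change was 1.39 after median-of-ratios scaling and 0.46 after quantile normalization, and Dcn passed in both.

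Versican, a large proteoglycan, fell. Vcan (ENSRNOG00000029212) measured 31.1, 45.6, 58.3 and 43.8 TPM in SOD1-WT and 20.9, 17.1, 16.3 and 13.1 TPM in SOD1-K123R. The groups did not overlap, although the spread within SOD1-WT was wide, with replicate 1 lowest and replicate 3 highest. The mean went from 44.7 ± 11.1 to 16.9 ± 3.21 TPM, a 2.65-fold difference (log2 fold change -1.34, SE 0.18, limma adjusted p = 9.96e-06). After median-of-ratios scaling the log2 fold change was smaller, -0.91, and after quantile normalization it was -1.35, and Vcan passed in both.

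Aggrecan, the proteoglycan that defines the healthy disc core, was measured at a low level in both groups. Acan (ENSRNOG00000028992) read 1.23, 1.44, 2.16 and 1.35 TPM in SOD1-WT and 0.72, 0.50, 0.66 and 0.70 TPM in SOD1-K123R. The groups did not overlap. The mean went from 1.54 ± 0.419 to 0.645 ± 0.0998 TPM, which was 2.40-fold lower, close to the 2.65-fold of Vcan, whereas the log2 fold change was only -0.62 (SE 0.13; limma adjusted p = 0.000557) because 1 TPM is added before taking the logarithm. With 0.1 TPM added instead, the log2 fold changes were -1.12 for Acan and -1.38 for Vcan. Acan passed the filter through the SOD1-WT group alone, and without SOD1-WT replicate 3 its mean over the remaining 7 libraries was 0.943 TPM, below the filter. With no filter and without that library the log2 fold change was -0.51 (limma adjusted p = 0.000684), and with all libraries after median-of-ratios scaling it was -0.39 (limma adjusted p = 0.00789).

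Lubricin was also near the filter and did not pass. Prg4 (ENSRNOG00000002385) read 1.00, 1.08, 1.78 and 0.92 TPM in SOD1-WT and 2.13, 1.24, 1.45 and 1.08 TPM in SOD1-K123R. The groups overlapped, with SOD1-WT replicate 3 above all but 1 of the SOD1-K123R libraries. The means were 1.20 ± 0.395 and 1.48 ± 0.462 TPM, and the log2 fold change was 0.17 with a 95% interval of -0.18 to 0.52 (limma adjusted p = 0.309). Other scalings of the libraries let Prg4 pass as higher in SOD1-K123R, with a log2 fold change of 0.43 for median-of-ratios scaling (limma adjusted p = 0.0137) and of 0.45 for quantile normalization (limma adjusted p = 0.00966).

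The largest difference of the set was in the synthesis enzyme. Chsy3 (ENSRNOG00000050152), which lengthens chondroitin chains by adding glucuronic acid and N-acetylgalactosamine, measured 88.5, 102, 108 and 85.3 TPM in SOD1-WT and 8.99, 8.00, 7.09 and 7.83 TPM in SOD1-K123R. The lowest SOD1-WT library was far above the highest SOD1-K123R library. The mean went from 95.8 ± 10.6 to 7.98 ± 0.782 TPM, which was 12.0-fold lower (log2 fold change -3.43, SE 0.10; limma adjusted p = 8.35e-11). By size of decrease Chsy3 ranked 7 of the 2890 genes tested, and its log2 fold change lay between -3.57 and -3.01 under the alternatives that kept all libraries. An exact permutation test over the 8 libraries gave p = 0.0286, two-sided, for Chsy3, Vcan, Acan and Dcn alike, which is the smallest p that 4 against 4 allows, and p = 0.400 for Prg4.

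**Figure D1:**
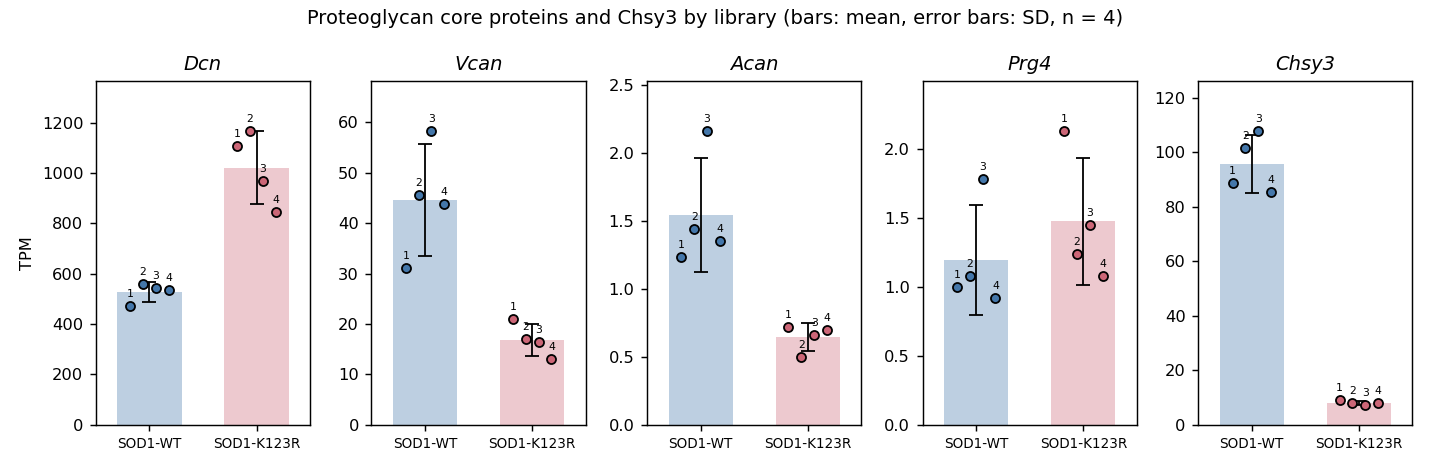
TPM of Dcn, Vcan, Acan, Prg4 and Chsy3 (1 panel each, vertical axes from 0) in the 4 SOD1-WT (blue) and 4 SOD1-K123R (red) libraries, with replicate numbers beside the points, bars at the mean and error bars of 1 SD. Groups are apart for 4 genes, Chsy3 from 85.3 to 108 TPM against 7.09 to 8.99 TPM, and overlap for Prg4.

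The promoters of the 3 genes that fell are shown because these genes moved in the same direction and can be compared for shared short motifs. Each is the 250 bases before the annotated start in RefSeq on the GRCr8 assembly, 5′ to 3′ on the gene's strand, and capitals mark the GC box, GGGCGG or its complement CCGCCC. Of the 5 genes, 4 had an entry (Acan, Vcan, Prg4 and Chsy3), Vcan with 2 starts, of which the upstream one is printed. The positions are chr1:142390701-142390950 on the plus strand for Acan, chr2:22595956-22596205 on the minus strand for Vcan and chr18:54842010-54842259 on the plus strand for Chsy3.
Acan: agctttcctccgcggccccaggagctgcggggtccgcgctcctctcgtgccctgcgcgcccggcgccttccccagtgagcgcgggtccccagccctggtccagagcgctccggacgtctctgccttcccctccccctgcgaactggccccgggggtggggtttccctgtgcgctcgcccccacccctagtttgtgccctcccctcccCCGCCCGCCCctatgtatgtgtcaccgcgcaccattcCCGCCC
Vcan: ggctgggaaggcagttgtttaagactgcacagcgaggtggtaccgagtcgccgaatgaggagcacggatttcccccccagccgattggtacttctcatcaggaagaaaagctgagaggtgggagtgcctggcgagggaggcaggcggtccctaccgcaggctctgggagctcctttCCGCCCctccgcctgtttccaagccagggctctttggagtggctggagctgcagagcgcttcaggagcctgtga
Chsy3: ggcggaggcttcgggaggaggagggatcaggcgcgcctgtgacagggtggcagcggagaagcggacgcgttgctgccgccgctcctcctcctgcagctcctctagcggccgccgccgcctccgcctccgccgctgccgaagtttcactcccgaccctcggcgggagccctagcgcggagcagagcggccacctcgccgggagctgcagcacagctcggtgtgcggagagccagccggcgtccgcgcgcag
The GC box occurred 3 times before Acan, 2 of these matches overlapping, 1 time before Vcan and 0 times before Chsy3, and 30.5% of 33469 rat promoters of this length hold it on either strand. The TATA box TATAAA was found on neither strand of these 3 windows. Before Prg4 it was found 1 time, as TTTATA on the gene's strand and so in the opposite orientation, and 12.9% of all promoters hold it on either strand. On either strand, none of the windows printed here, nor those of Prg4 and the second Vcan start, held the E-box CACGTG (5.59% of all promoters), the AP-1 element TGANTCA (6.34%), the SOX core ACAAT (30.0%) or the hypoxia response core ACGTG (16.6%), the last of which lies within the E-box. The base composition of the windows differed: 73.6% of the bases were G or C before Acan, 61.6% before Vcan, 74.4% before Chsy3 and 38.8% before Prg4, against a median of 51.2% over all promoters. The 3 printed windows thus lay above the median and above the upper quartile of 60%, Vcan only narrowly, and the second Vcan start was at 60.0%. Dcn, which rose, had no entry, so this content could not be compared with a gene that rose. No motif of those searched is common to all 3, and a match or its lack is a description of letters only.

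The order of the transcripts changed between the groups. In each SOD1-WT library the order from the top was Dcn, Chsy3, Vcan, Acan and Prg4. In each SOD1-K123R library it was Dcn, Vcan, Chsy3, Prg4 and Acan, so both neighbouring pairs below Dcn had exchanged places. The lower pair, Acan and Prg4, measured near 1 TPM, so its exchange rests on low values. Between genes of the same group, Acan and Prg4 overlapped in SOD1-WT (1.23 to 2.16 against 0.92 to 1.78 TPM), and the other neighbours did not.

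Ratios of TPM within a library do not change when a library is multiplied by a single factor (quantile normalization is no such factor), and they are given as a description. Vcan over Chsy3 was 0.351, 0.449, 0.541 and 0.513 in SOD1-WT and 2.33, 2.13, 2.30 and 1.68 in SOD1-K123R. The core protein transcript was thus below that of the enzyme in every SOD1-WT library and above it in every SOD1-K123R library. Dcn over Vcan was 9.35 to 15.1 in SOD1-WT and 52.9 to 68.4 in SOD1-K123R. The balance between the small and the large proteoglycan thus moved toward decorin in all 4 SOD1-K123R libraries. Prg4 over Acan was 0.681 to 0.824 in SOD1-WT and 1.54 to 2.96 in SOD1-K123R, where Acan measured only 0.50 to 0.72 TPM. Vcan over Acan, in contrast, overlapped between the groups (25.3 to 32.4 and 18.7 to 34.1), while both of these hyaluronan-binding proteoglycans fell.

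**Figure D2:**
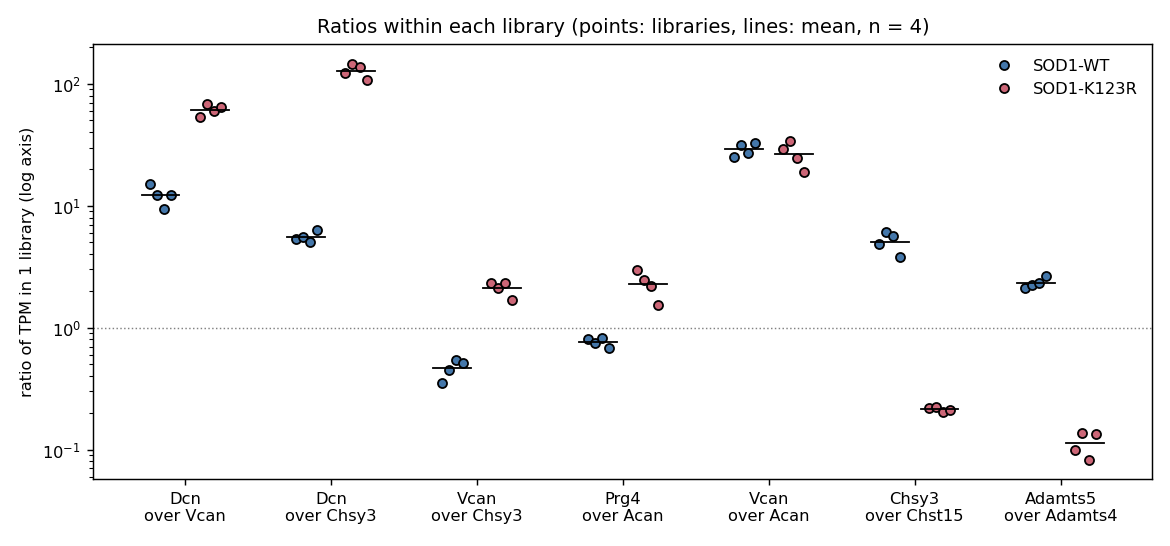
Ratio of the TPM of 2 genes in each library (log axis), with SOD1-WT in blue, SOD1-K123R in red and a line at the mean of 4 libraries. Dcn over Vcan rises from 9.35 to 15.1 up to 52.9 to 68.4, Vcan over Chsy3 crosses the dotted line at 1, and Vcan over Acan overlaps between the groups.

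The genes also differed in how much they varied within a group. Relative to the mean, the SD in SOD1-WT was 7.52% for Dcn, 11.1% for Chsy3, 24.9% for Vcan, 27.1% for Acan and 33.1% for Prg4. SOD1-WT replicate 3 held the highest value of its group for Vcan, Acan, Prg4 and Chsy3, and SOD1-WT replicate 1 the lowest for Vcan, Acan and Dcn. In SOD1-K123R the SD was 9.80% of the mean for Chsy3, 14.2% for Dcn, 15.5% for Acan, 19.0% for Vcan and 31.3% for Prg4, and replicate 4 was lowest for Vcan, Dcn and Prg4. The calls of Vcan, Dcn and Chsy3 did not rest on 1 library: over the fits that left out 1 library the log2 fold change was -1.50 to -1.20 for Vcan, 0.88 to 1.03 for Dcn and -3.48 to -3.37 for Chsy3, all passing.

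Among the 2890 genes tested, which leave out the rows below the filter, Dcn lay at the 98.1 percentile of level in SOD1-WT and the 98.6 in SOD1-K123R. Chsy3 moved from the 92.1 to the 51.7 percentile and Vcan from the 85.1 to the 68.1. Acan (10.7 and 4.46) and Prg4 (7.96 and 15.0) stayed in the lowest part of the genes tested. The median absolute log2 fold change of all genes tested was 1.14. Those of Chsy3 and Vcan were above this median, at the 99.4 and 65.7 percentiles of absolute size, and those of Dcn, Acan and Prg4 were below it, at the 34.0, 13.2 and 1.76 percentiles.

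**Figure D3:**
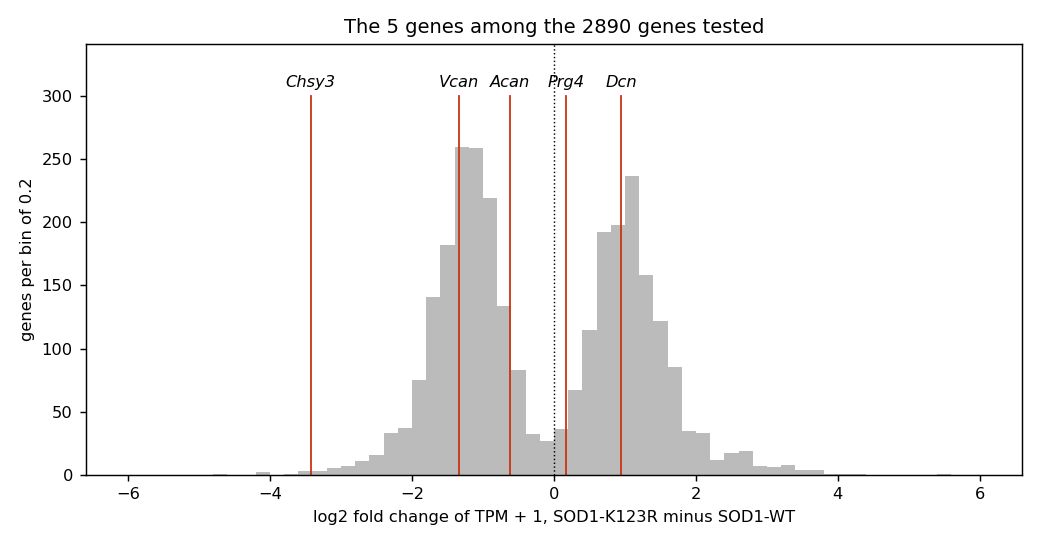
Histogram of the log2 fold change of TPM + 1 (SOD1-K123R minus SOD1-WT, bins of 0.2) for the 2890 genes tested, with a red line at each of the 5 genes. Vcan (-1.34) and Dcn (0.94) lie within the 2 broad peaks on either side of 0, Prg4 (0.17) lies in the trough between them and Chsy3 (-3.43) in the far left tail.

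The genes whose profile over the 8 libraries was most like each of the 5 were found by the Euclidean distance between log2(TPM + 1) values less their own mean. For Chsy3 they were Bmp2, a bone and cartilage growth factor (distance 0.37, Pearson r = 0.998), Pclaf (0.55) and Krtap1-5 (0.59). For Vcan they were Otud6b (0.27), Sema3c (0.27) and Mt-nd4 (0.32), and for Acan Mtrf1 (0.18), Ndc1 (0.22) and Etv1 (0.24). Dcn was near to Ndel1 (0.14) and Cdk13 (0.19), and Prg4 to Nrg1 (0.32), Slc11a1 (0.35) and Itgax (0.43). All points share the same 8 libraries and the same group difference, so closeness says little beyond a difference of similar size.

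Chain synthesis around Chsy3 was measured for few genes. Of 23 listed genes of the linkage region and of chondroitin or dermatan sulfate synthesis, 4 were in the table and tested, of which 3 fell and 1 rose (51.1% and 44.6% of all genes tested). Besides Chsy3, Csgalnact1, which adds the first N-acetylgalactosamine that commits a chain to chondroitin, fell from 11.6 ± 1.55 to 5.25 ± 0.961 TPM (log2 fold change -1.02, SE 0.14). Dse, the epimerase that turns chondroitin into dermatan sulfate, fell from 22.3 ± 2.40 to 6.04 ± 0.881 TPM (log2 fold change -1.73, SE 0.12). Chst15, which adds a further sulfate to chondroitin sulfate A, rose from 19.2 ± 2.49 to 37.1 ± 2.79 TPM (log2 fold change 0.92, SE 0.10). The highest limma adjusted p of these 3 was 1.20e-05. Chsy3 over Chst15 was 3.77 to 6.04 in SOD1-WT and 0.205 to 0.224 in SOD1-K123R, and Chsy3 over Dse was 3.63 to 4.65 and 1.15 to 1.50, so elongation, epimerization and sulfation genes did not change in proportion. The median log2 fold change of the 4 was -1.37, against -0.49 over all genes tested. Chsy3 itself is 1 of the 4, and the values of the others were -1.02, -1.73 and 0.92. The median of the table depended on level, and was 0.27 among genes averaging at least 5 TPM. In the list of 15 genes for precursor supply, 2 were tested. Slc35d2, a nucleotide sugar transporter, fell (5.90 ± 0.726 to 2.46 ± 1.03 TPM, log2 fold change -1.03, limma adjusted p = 0.000166) and Gfpt2, of the hexosamine pathway, did not pass (3.26 ± 0.466 and 3.76 ± 0.224 TPM; log2 fold change 0.17), but passed as higher after median-of-ratios scaling (0.51) and quantile normalization (0.50).

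Genes of heparan sulfate, the other main chain of cell-surface proteoglycans, were lower where tested. All 3 tested of 24 listed fell, where 51.1% of all genes tested fell: Sulf1, an extracellular sulfatase that trims sulfates, from 364 ± 59.7 to 111 ± 8.30 TPM, Hs6st2, a sulfotransferase, from 44.4 ± 5.91 to 19.4 ± 3.46 TPM and Extl2, a glycosyltransferase, from 5.36 ± 0.588 to 1.78 ± 0.321 TPM. Their log2 fold changes were -1.69, -1.16 and -1.20 (median -1.20). Of 41 listed core proteins of other proteoglycans, 4 were in the table and 2 were tested, and both are heparan sulfate proteoglycans of the cell surface. Syndecan 3 (Sdc3) fell from 5.95 ± 1.23 to 1.81 ± 0.292 TPM (log2 fold change -1.29) and glypican 6 (Gpc6) from 8.14 ± 1.64 to 2.50 ± 0.458 TPM (-1.38), a median of -1.33. Below the filter, glypican 2 (Gpc2) measured 0.28 to 0.38 TPM in SOD1-WT and 1.08 to 1.55 TPM in SOD1-K123R without a test, and Ogn measured at most 0.81 TPM. The highest limma adjusted p among these 5 tested genes was 3.64e-06.

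Hyaluronan, the sugar chain to which aggrecan and versican bind, was not measured itself, but a gene for making it showed another large difference beside Chsy3. Has2, a hyaluronan synthase, measured 11.5, 17.4, 19.3 and 14.8 TPM in SOD1-WT and 0.57, 0.86, 0.79 and 0.95 TPM in SOD1-K123R. The groups did not overlap, and the mean was 19.9-fold lower (15.8 ± 3.42 to 0.792 ± 0.162 TPM; log2 fold change -3.21, SE 0.16; limma adjusted p = 2.44e-09), although Has2 passed the filter through SOD1-WT alone. With 0.1 TPM added in place of 1 TPM, the log2 fold change was -4.14 for Has2 and -3.57 for Chsy3. Cemip, a hyaluronan-degrading protein, also fell, from 114 ± 12.8 to 21.7 ± 3.96 TPM (log2 fold change -2.36, SE 0.13), so that genes for making and for breaking down hyaluronan were both lower. Vcan over Has2 was 2.62 to 3.01 in SOD1-WT and 13.8 to 36.7 in SOD1-K123R, so Has2 differed more between the groups than versican did. In SOD1-K123R this ratio divides by low Has2 values, 0.57 to 0.95 TPM. Tnc, a matrix glycoprotein that binds versican and related proteoglycans, fell from 340 ± 45.8 to 183 ± 10.9 TPM (-0.89), while Layn, a membrane receptor for hyaluronan, rose from 3.10 ± 0.677 to 10.1 ± 2.27 TPM (1.43). Of Cemip, Tnc and Layn the last had the highest limma adjusted p, 4.45e-06. Hapln1, the link protein that fixes aggrecan and versican to hyaluronan, was below the filter and not tested. It measured 1.22, 1.22, 2.66 and 1.32 TPM in SOD1-WT and 0.39, 0.24, 0.56 and 0.31 TPM in SOD1-K123R, without overlap. As for Acan, SOD1-WT replicate 3 held the highest value. Of 31 listed genes of hyaluronan and the aggregate, 6 were in the table and 4 tested. Of these 4, 3 were lower and 1 higher, with a median log2 fold change of -1.62. Over all genes tested 51.1% were lower and 44.6% higher, with a median of -0.49. Among genes averaging at least 5 TPM, as all 4 of these do, 897 were lower and 948 higher, with a median of 0.27. Has2 is 1 of the 4 and passed the filter through SOD1-WT alone, so this count and median are a description only. The deposited GO annotation lists hyaluronic acid binding for Acan and Vcan among 6 genes of the table, and it is 1 of 2 terms that any of the 5 genes share.

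Proteases that cut core proteins moved both ways. Of 26 listed proteases and inhibitors 11 were in the table and 9 tested, with 6 higher, 3 lower and a median log2 fold change of 0.77, against 44.6% higher, 51.1% lower and a median of -0.49 over all genes tested. Among genes averaging at least 5 TPM, as all 9 of these do, the median of the table was 0.27, which is nearer to that of the list. At that level 948 genes were called higher and 897 lower, so more rose than fell there too. The aggrecanases divided: Adamts4 rose from 16.1 ± 1.03 to 54.6 ± 3.23 TPM, whereas Adamts5 fell from 37.6 ± 5.15 to 6.15 ± 1.16 TPM and Adamts1, a versican- and aggrecan-cleaving protease, from 635 ± 66.7 to 189 ± 36.9 TPM. In each library Adamts5 over Adamts4 was 2.10 to 2.66 in SOD1-WT and 0.0827 to 0.136 in SOD1-K123R. Vcan over Adamts1 overlapped between the groups (0.0539 to 0.0943 and 0.0589 to 0.117), while the substrate was 2.65-fold and the protease 3.36-fold lower. Mmp9, a gelatinase, rose from 1249 ± 166 to 3750 ± 223 TPM (log2 fold change 1.59). The highest limma adjusted p of Adamts1, Adamts4, Adamts5 and Mmp9 was 8.50e-08. Named after their values were seen, Mmp13, a collagenase that also cuts aggrecan, rose (0.58), a call lost after quantile normalization (-0.07, limma adjusted p = 0.563), and Timp3, an inhibitor of aggrecanases, fell (-0.67), a call lost after median-of-ratios scaling (-0.23, limma adjusted p = 0.0755).

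Transcription factors of cartilage and disc matrix rose in 5 of 6 tested cases of 16 listed, where 44.6% of all genes tested rose (median log2 fold change 1.33, against -0.49 over all genes tested). Among genes averaging at least 5 TPM the median of the table was 0.27. Of the 5, Sox9 passed the filter through the group where it is high, so the count is a description. Sox9, an activator of the aggrecan gene in chondrocytes, rose from 0.400 ± 0.101 to 3.18 ± 0.500 TPM, a log2 fold change of 1.58 (SE 0.12), whereas Acan fell. Smad2, a transducer of TGF-beta signals, rose from 19.9 ± 2.93 to 59.9 ± 3.40 TPM (1.55), Foxo3 from 8.46 ± 1.38 to 21.8 ± 1.30 TPM (1.28) and Runx2, a factor of bone and hypertrophic cartilage, from 4.52 ± 1.03 to 13.3 ± 2.23 TPM (1.38). The highest limma adjusted p of these 4 was 2.43e-06. The 1 gene that fell, Trps1 (-0.86), was named after its values were seen. None of the 13 listed genes of lysosomal glycosaminoglycan degradation was among the rows analysed here.

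**Figure D4:**
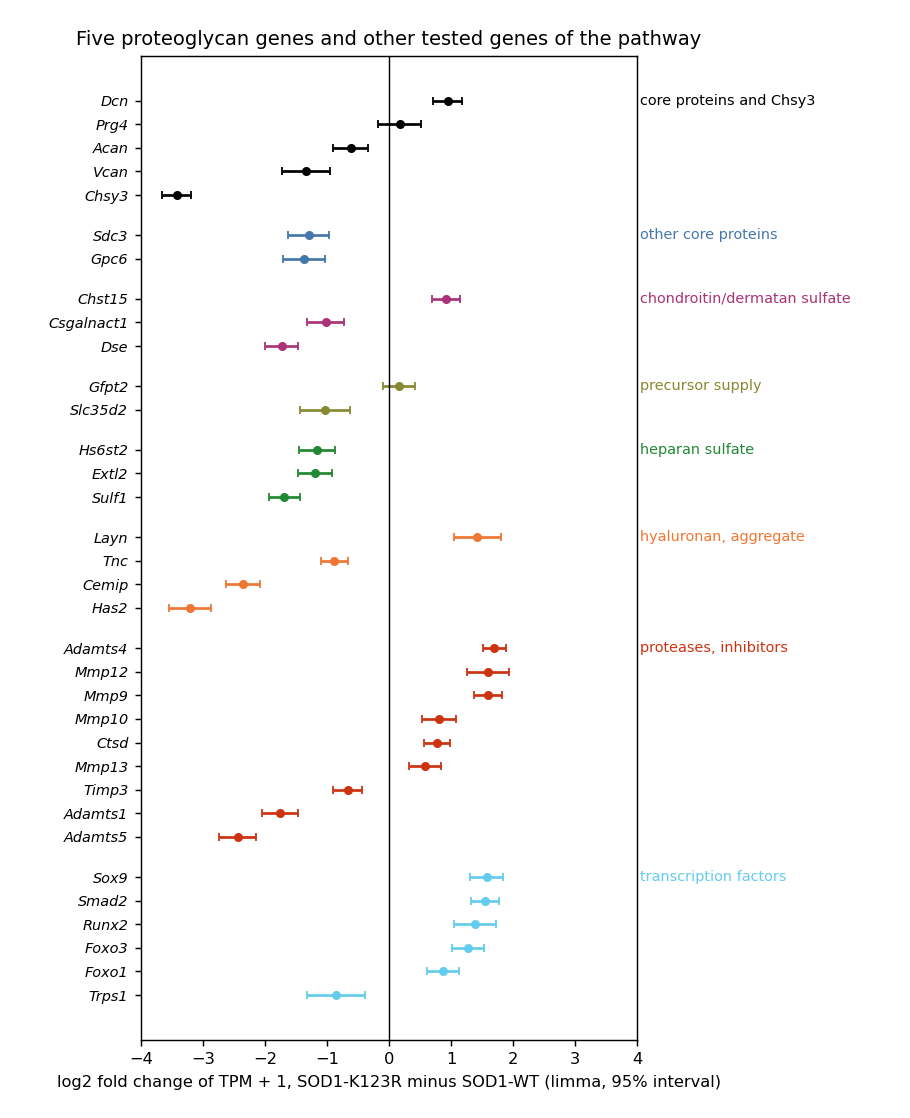
Log2 fold change of TPM + 1 (SOD1-K123R minus SOD1-WT) with limma's 95% interval for the 5 genes (black) and the other tested genes of each list (colours, names at right). Chsy3 (-3.43) and Has2 (-3.21) lie farthest to the left, heparan sulfate genes lie left of 0, and the transcription factors other than Trps1 lie right of it.

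Over the 8 lists, 36 of 189 genes were in the table and 30 were tested, of which 13 rose, 16 fell and 1 did not pass, and 2 had passed the filter through 1 group alone. Chsy3 is 1 of the 30, and without it 13 rose and 15 fell. The table as a whole gave 44.6% higher and 51.1% lower among genes tested, so the lists as a whole were divided much as the table was.

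The labelled cell type was checked against markers. Col2a1, the collagen gene of cartilage and disc core, was listed at 0 in all 4 SOD1-WT libraries and at 0.02 to 0.08 TPM in SOD1-K123R. Acan was below 3 TPM throughout, so these matrix genes were low or at 0, which was not so for every nucleus pulposus marker. Of 15 nucleus pulposus markers 6 were in the table and 5 tested, with 3 higher and 2 lower (44.6% and 51.1% of all genes tested). Of these 5, 3 passed the filter through 1 group alone (Sox9 and Nog through SOD1-K123R, Acan through SOD1-WT), so this split is a description only. The summed level of the 6 was 20.3 to 23.4 TPM in SOD1-WT and 31.1 to 48.9 TPM in SOD1-K123R. Cd24 and Cdh2 had the highest levels of the 6 in SOD1-WT and moved in opposite directions. Cd24 rose from 10.1 ± 1.43 to 31.2 ± 6.44 TPM, and Cdh2 fell from 9.43 ± 0.432 to 2.96 ± 0.451 TPM. Decorin is also a fibroblast gene. Of 7 fibroblast and stroma markers 3 were in the table, and while Dcn rose, Col3a1 fell from 91.7 ± 12.8 to 33.8 ± 2.99 TPM and Dpt from 1.92 ± 0.435 to 0.435 ± 0.172 TPM. The summed level of this list, most of it Dcn, was 559 to 656 TPM in SOD1-WT and 876 to 1203 TPM in SOD1-K123R. Both tested annulus and tendon markers of 7 listed, Scx and Thbs4, fell (sum 34.6 to 55.2 against 17.0 to 21.7 TPM). The 1 macrophage and leukocyte marker of 6 in the table, Cd68, rose (5.44 to 7.94 against 22.8 to 29.8 TPM). Of 6 osteoblast markers 3 were in the table, with Runx2 higher, Ibsp lower and a sum of 11.8 to 16.0 against 12.5 to 17.2 TPM. Of 6 endothelial markers 2 were in the table, Pecam1 and Tie1, and neither reached 0.5 TPM in any library. Of 9 chondrocyte and endplate markers 2 were in the table, Prg4 and Col2a1 (sum 0.92 to 1.78 against 1.10 to 2.21 TPM). With 95.7% of all genes tested passing, the direction of a single marker does not set it apart. The part of these markers' cell types in the differences of the 5 genes was not tested.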

How the data were processed

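The authors deposited 1 table of TPM per gene, which also holds Ensembl identifiers, symbols and functional annotation (per the file headers) and carries RSEM in its name. DESeq2 is named in the submitters' processing notes without a stated role, and no aligner, build or annotation release is given in the sources used here. TPM keep no read counts, so depth is unknown and no count model or counting interval was used. Paired-end RNA-seq was run on total RNA isolated with TRIzol, per the labels' protocols.

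Columns were assigned by the library names in the labels. The 2890 of 4226 genes averaging 1 TPM or more across 8 libraries were fitted on log2(TPM + 1) with limma 3.58.1 in R 4.3.3 (lmFit, eBayes with a mean-variance trend), two-sided, with Benjamini-Hochberg adjustment over all of them; a gene passed at an adjusted p under 0.05. The fit was also run on simulated data in which most genes were unchanged. That setting is unlike this table, where most genes passed, so it says nothing of the fit at such a share. Exact permutation tests used scipy 1.17.1.

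The genes and lists were chosen with earlier results of these data known. Named are the 5 genes, the 4 (or fewer) tested genes per list whose adjusted p was smallest, tested list genes that did not pass, and the 3 genes most like each of the 5, of which 1 is not reported here. List members were matched by symbol, and promoters come from a RefSeq table of GRCr8. Alternatives were another pseudocount, no filter or 5 TPM, 2 scalings, no trend, a replicate block and leaving out each library; the fit of Acan without filter and without SOD1-WT replicate 3 was added after seeing the data.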

Additional observations from a re-analysis of the deposited data

How the results depend on the processing

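Chsy3, Vcan, Acan and Dcn kept their direction and their call under every alternative that could be fitted. Acan and Prg4 have no value at a mean of at least 5 TPM, which both fail. The log2 fold change of Acan was -0.68 to -0.57 over the fits that left out 1 library and in which Acan passed the filter. Without SOD1-WT replicate 3 it failed the filter, and the added fit with no filter gave -0.51. Prg4 passed under 2 alternatives, median-of-ratios scaling (log2 fold change 0.43) and quantile normalization (0.45), and over the fits that left out 1 library it was 0.05 to 0.29 and did not pass; the cause was not tested. The median log2 fold change of all genes tested was -0.49, against -0.17 after median-of-ratios scaling and -0.25 after quantile normalization, and relative to these medians Dcn was higher and Chsy3 and Vcan lower in each case, whereas Acan (-0.62, -0.39 and -0.40) was nearer to them. With 0.1 TPM added in place of 1 TPM, Acan was at -1.12 and the median at -0.65. At a mean of at least 5 TPM the median changed sign, to 0.27, so the -0.49 depended on the genes of low level. Genes called lower in the table went from 1476 to 897 at a mean of at least 5 TPM, where fewer genes are tested, beside 948 called higher (1289 in the fit as reported). List genes called higher were 12 to 15 and lower 13 to 18 over the alternatives with all libraries.

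Replicate numbers are shared between the groups, but deviations of same-numbered libraries correlated at -0.35, 0.02, -0.20 and 0.05, so the numbers were not taken to pair samples. With a replicate block, 1282 genes were higher and 1461 lower, and no call among the 5 genes changed (Prg4: limma adjusted p = 0.320). TPM without depth limit what can be said of Acan and Prg4, which are near 1 TPM.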
